A study of Rattus norvegicus with 6 samples.

Results

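The nuclear-encoded genes of the mitochondrial respiratory chain and of ATP synthase were followed in 6 RNA sequencing libraries of RSC96, a line of immortalised Schwann cells from rat. Members were the rows of the count table whose symbols matched the naming patterns of the subunit families (Nduf, Sdh, Uqcr, Cyc1, Cox and Atp5). The patterns used names alone and no measured value. They picked 77 of 16849 genes: 36 of complex I, 4 of complex II, 9 of complex III, 12 of complex IV and 16 of complex V. Genes were placed in complexes by symbol alone, so every Nduf row, Ndufa4 among them, counts under complex I. A filter on low counts passed 76 of them to the tests, all except Cox4i2.

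Complexes I to IV pass electrons from NADH and succinate to oxygen and, except for complex II, pump protons across the inner mitochondrial membrane. Complex V, the ATP synthase, uses the returning protons to make ATP. Most subunits are encoded in the nucleus and imported. In low oxygen, hypoxia-inducible factors are known to raise some subunit isoforms and regulators of the chain, and in nerve the Schwann cell is known to meet much of its energy demand by glycolysis as well as by respiration.

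The 6 libraries formed 3 groups of 2, all wild type. PVDF@PDA combined hypoxia with a piezoelectric material, PCL@PDA combined hypoxia with a material that is not piezoelectric, and Control carried neither label. Hypoxia stands here for 24 h in medium conditioned by macrophages, which served as a model of it, and the labels do not say whether Control cells received that medium. Each group had 1 library of batch 1 and 1 of batch 3, called replicates 1 and 3. In the free text, PCL@PDA libraries are described with PVDF@PDA's name, and grouping here goes by title. All libraries come from this 1 cell line, and whether those of a group are separate cultures is not stated. The p-values thus reflect the spread between these libraries alone, and that spread may be technical.

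Total counts ran from 32760123 to 35389307 per library. The PCL@PDA pair differed more than the others, with a chi-square per degree of freedom of 10.2 between its libraries against 4.80 for PVDF@PDA and 5.56 for Control, and PCL@PDA replicate 3 stood apart on the second principal component. Of the Schwann cell markers, Pmp22 and Erbb3 were well counted (at least 349 counts per library), but S100b had 2 to 28 counts and Cdh19 0 to 4. Sox10 is not reported here. Pmp22 was higher and Erbb3 lower with both materials, and 1 further marker of the list was higher with PCL@PDA. The macrophage markers summed to 7.33 to 8.94 CPM (counts scaled to library size), with Ptprc and Aif1 at 0 or 1 count; the 5 tested had a median log2 difference from Control of 0.95 with PVDF@PDA and 1.03 with PCL@PDA, and 0 were called. Fibroblast markers summed to 652 to 666 CPM with the materials and to 702 and 708 in Control: Col1a1 and Pdgfra were higher and Col1a2 lower with both materials, and Dcn was at 0 or 1 count. The part of these markers in the results below was not tested.

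The 5 members called against Control with both materials were Uqcrh, Ndufb10, Ndufv3, Ndufv2 and Atp5mc1. For these genes, picked by their calls, the 250 bases upstream of each annotated start are shown. They are the RefSeq sequences of the assembly GRCr8, which is newer than the build of the files, on the coding strand and 5′ to 3′. Capitals mark matches, on either strand, to CCGGAAG (an ETS-type motif, the kind bound by GABP), ACGTG and GCGTG (core letters of the hypoxia response element), GGGCGG (SP1), the palindromic core of the NRF1 motif and AAGATGGC (YY1).
Uqcrh, chr5:134790883-134791132, minus strand: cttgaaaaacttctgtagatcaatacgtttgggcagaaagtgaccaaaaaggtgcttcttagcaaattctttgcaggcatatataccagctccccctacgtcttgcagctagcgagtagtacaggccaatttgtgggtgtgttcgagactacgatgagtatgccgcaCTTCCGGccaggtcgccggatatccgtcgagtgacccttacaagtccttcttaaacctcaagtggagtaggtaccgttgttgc
Ndufb10, chr10:14255967-14256216, minus strand: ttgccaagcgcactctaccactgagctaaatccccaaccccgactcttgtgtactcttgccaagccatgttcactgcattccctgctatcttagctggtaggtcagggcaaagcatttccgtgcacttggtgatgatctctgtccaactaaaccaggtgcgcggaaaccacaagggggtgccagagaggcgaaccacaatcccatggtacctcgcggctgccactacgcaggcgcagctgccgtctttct
Ndufv3, chr20:9613536-9613785, plus strand: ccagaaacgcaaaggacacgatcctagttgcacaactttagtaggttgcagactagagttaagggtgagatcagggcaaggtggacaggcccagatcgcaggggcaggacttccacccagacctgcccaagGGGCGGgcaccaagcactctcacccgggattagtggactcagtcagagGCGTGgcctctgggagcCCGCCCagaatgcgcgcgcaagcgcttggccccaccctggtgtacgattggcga
Atp5mc1, chr10:81523346-81523595, minus strand: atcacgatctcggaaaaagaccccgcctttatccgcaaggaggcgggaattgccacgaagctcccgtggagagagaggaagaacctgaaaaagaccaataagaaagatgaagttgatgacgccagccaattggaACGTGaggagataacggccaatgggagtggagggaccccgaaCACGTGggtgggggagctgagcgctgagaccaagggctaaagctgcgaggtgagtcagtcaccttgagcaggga
Ndufv2, chr9:113157521-113157770, minus strand: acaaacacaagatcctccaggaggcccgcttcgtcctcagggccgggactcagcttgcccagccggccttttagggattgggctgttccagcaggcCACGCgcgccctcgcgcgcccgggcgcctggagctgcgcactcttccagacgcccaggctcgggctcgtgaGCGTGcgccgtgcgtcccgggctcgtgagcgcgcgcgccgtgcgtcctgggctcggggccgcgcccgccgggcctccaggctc

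In these windows Uqcrh has 1 CCGGAAG match, 83 bases before the start, on the opposite strand. Atp5mc1 has 3 ACGTG matches, of which 2 overlap on opposite strands within CACGTG. Ndufv2 and Ndufv3 have GCGTG matches and Ndufb10 has none of the motifs. Over the 66 members with a promoter entry, 20 (30.3%) held CCGGAAG, against 7.74% of all 27457 promoter windows of that length and 9.52% of the 19005 of protein-coding genes. The NRF1 core was in 4 (6.06%), against 0.849% of all promoter windows and 1.03% of protein-coding ones. ACGTG was in 22.7% of member windows, against 16.9% of all and 17.6% of protein-coding ones. GCGTG was in 42.4%, against 27.2% and 31.7%, and GGGCGG in 31.8%, against 32.4% and 40.3%. AAGATGGC was in 3.03%, against 1.69% and 1.71%, and CCAAT in 30.3%, against 34.3% and 35.5%. The median GC content was 56.2% in member windows, 54.8% in protein-coding ones and 52.0% in all. Among members called in either comparison with Control, CCGGAAG was in 3 of the 10 windows of genes called higher and in 2 of the 3 of genes called lower. These matches describe the letters in a window and were not tested further.

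Levels between genes are compared in FPKM, the authors' values scaled by gene length. Atp5f1b, the catalytic beta subunit of ATP synthase, was the most abundant member in every library, with a mean of 463.6 FPKM over the 6. Cox6a1 (270.2), Atp5pb (258.6), Atp5mg (252.7) and Cox4i1 (251.6) followed on average, and the order behind Atp5f1b varied between libraries. The median level per complex was 53.4 FPKM for complex I, 50.3 for II, 47.7 for III, 118.9 for IV and 119.2 for V. Above 100 FPKM were 10 of 16 members of complex V and 8 of 12 of complex IV, but 5 of 36 of complex I. The lowest tested member was the row named Ndufs6, with 28 to 48 counts per library. RefSeq lists its gene ID as a pseudogene, Ndufs6-ps1, and gives the name Ndufs6 to another row (281 to 425 counts) that the patterns did not match and that was not called in any comparison.

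**Figure D1:**
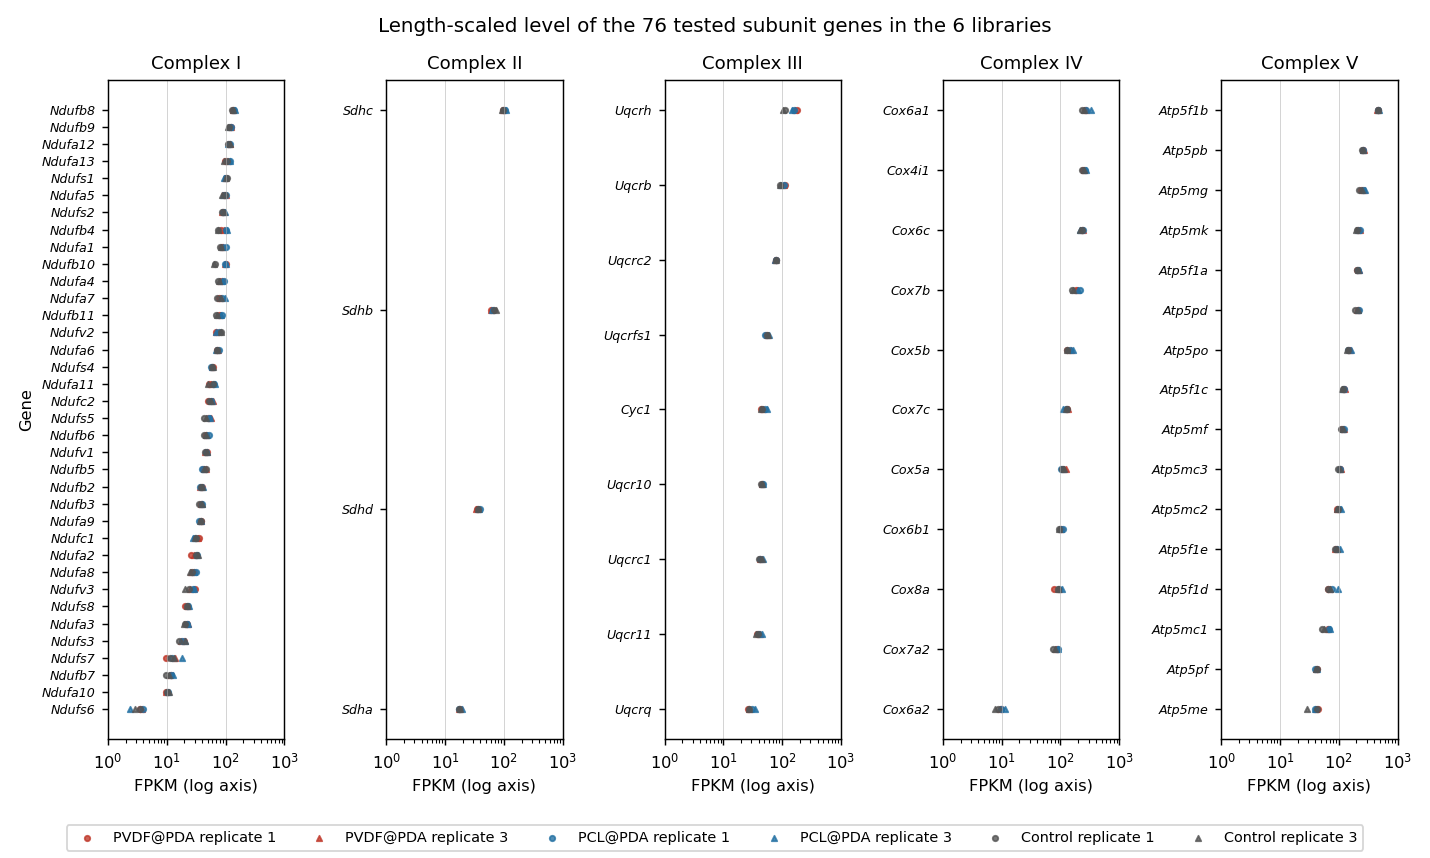
Level of the 76 tested subunit genes in FPKM on a log axis, by complex, with 1 point per library (colour for the group, circle for replicate 1 and triangle for replicate 3). The libraries of all groups lie nearly on top of each other beside the range over genes, and Atp5f1b in complex V reaches 463.6 FPKM on average.

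The members together made up 0.605% and 0.612% of all counts in the PVDF@PDA libraries, 0.623% and 0.641% with PCL@PDA and 0.586% and 0.597% in Control. After TMM scaling, which corrects for differences in library composition, their summed levels were 6020 and 6074 CPM, 6215 and 6284 CPM, and 5987 and 6065 CPM in the same order. PCL@PDA was thus highest on both scales, while PVDF@PDA and Control overlapped on the scaled one. In bulk libraries, fewer cells and less RNA per cell cannot be told apart. Complex V gave the largest part of the sum, with 2463 to 2590 CPM per library.

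Each material was first set against Control, and both comparisons share the Control libraries. Tests were edgeR's quasi-likelihood F test over all 13018 genes, with Benjamini-Hochberg adjustment, and a gene was called at an adjusted p below 0.05. With PVDF@PDA, 5 members were higher and 2 lower than in Control (9.21% of 76), against 15.7% of all genes called. With PCL@PDA, 12 were higher and 2 lower (18.4%), against 20.1% of all genes. By direction, 15.8% of members were higher with PCL@PDA and 8.77% of all genes, while 2.63% were lower and 11.3% of all genes. With PVDF@PDA, 6.58% were higher (6.79% of all genes) and 2.63% lower (8.90% of all genes). The median log2 difference of the members was 0.012 with PVDF@PDA (0.006 over all genes) and 0.063 with PCL@PDA (0.009 over all genes). Intervals (95%) stayed within 0.5 of 0 for 69 members with PVDF@PDA and for 68 with PCL@PDA. Both PVDF@PDA libraries lay above both Control libraries for 22 members and below them for 16, against 29.4% and 29.2% of all genes. For PCL@PDA these numbers were 36 and 13, against 28.3% and 27.8%. Some calls with PCL@PDA ended without Control replicate 1, Control replicate 3 or PCL@PDA replicate 3, the library that stands apart. A few also ended without a PVDF@PDA library, as given for each gene below. With PVDF@PDA, some higher calls ended without any 1 of the 4 libraries compared, and more members were called higher without either PCL@PDA library. Such a fit leaves 1 library in a group. The share of all genes called in it is not given here, so these changes are not results about the members. DESeq2 did not call Ndufv3 (adjusted p = 0.109) and Uqcrb (0.0778) with PVDF@PDA, nor Cyc1 (0.0738), Uqcrq (0.0548) and Cox5b (0.109) with PCL@PDA. By limma on log2 FPKM with either pseudocount, Ndufv3 and Uqcrb were not called with PVDF@PDA (adjusted p from 0.0682 to 0.138), nor Ndufv2, Ndufv3, Ndufs1, Cyc1, Cox5b and Atp5f1d with PCL@PDA (0.0541 to 0.181); with a pseudocount of 1, Ndufv2 with PVDF@PDA (0.0518) and Cox6a1 with PCL@PDA (0.0551) were not called either. With PCL@PDA, library totals alone ended the calls of Ndufv2 (0.0532) and Ndufs1 (0.105), the 4 libraries compared those of Ndufs1 (0.0593), Cyc1 (0.0625) and Cox5b (0.0524), and Cox5b was also lost without robust estimation (0.0525) and with the length trend removed (0.127, and 0.0784 with the block).

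**Figure D2:**
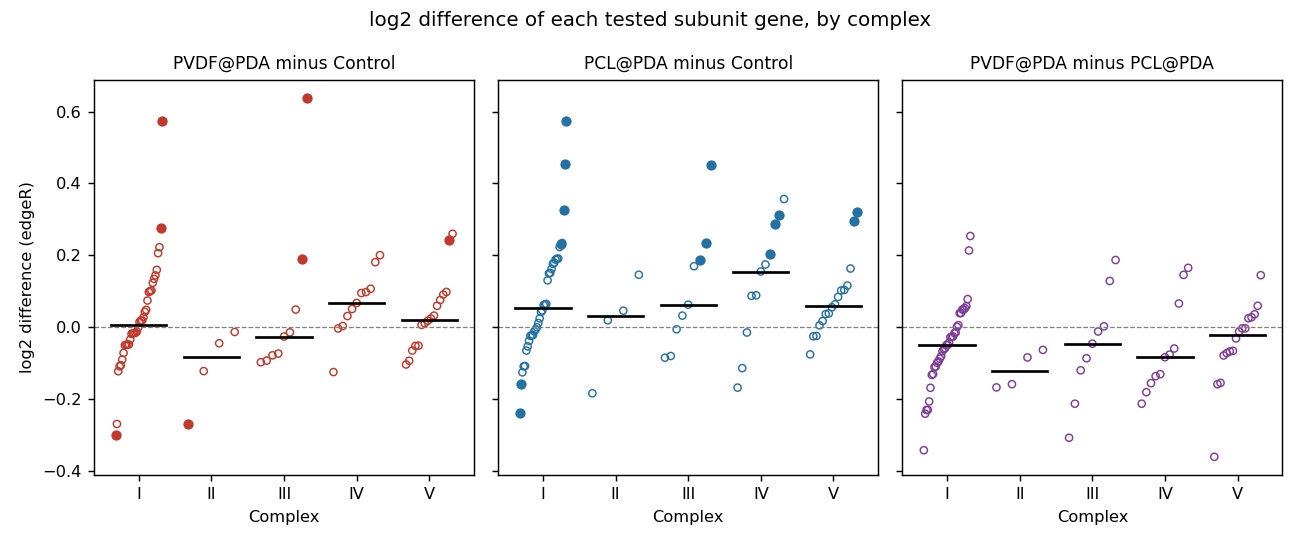
The log2 difference of each of the 76 tested members, by complex, in the 3 comparisons; filled points have an adjusted p below 0.05, open points do not, and black bars are medians. Uqcrh (complex III) and Ndufb10 (complex I) lie highest against Control, and the comparison of the materials has no filled point.

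Complex I oxidises NADH. The 36 genes placed here by symbol include Ndufa4 and the row that RefSeq lists as the pseudogene Ndufs6-ps1. Of the 36, 2 were higher and 1 lower with PVDF@PDA (6.79% and 8.90% of all genes). With PCL@PDA, 4 were higher and 2 lower (8.77% and 11.3% of all genes). Ndufb10, an accessory subunit of the membrane arm, measured 68.8 and 65.4 CPM in the PVDF@PDA libraries, 65.9 and 68.4 with PCL@PDA and 45.6 and 44.6 in Control (replicates 1 and 3 in turn, here and below). All 4 material libraries were above both Control libraries and the materials overlapped. Its log2 difference from Control was 0.58 (SE 0.076) with either material (adjusted p = 6.53e-08 with PVDF@PDA and 4.59e-08 with PCL@PDA).

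Ndufb4, another accessory subunit of that arm, measured 37.8 and 42.4 CPM in the PVDF@PDA libraries, 46.6 and 47.4 with PCL@PDA and 34.3 and 34.4 in Control. The 3 groups did not overlap. The PCL@PDA difference was 0.45 (SE 0.088, adjusted p = 9.69e-05) and the PVDF@PDA difference was 0.22 (adjusted p = 0.078). Some alternatives that keep 2 libraries per group called the PVDF@PDA difference. They were library totals alone (0.04), the 4 libraries compared (0.0457) and limma on FPKM plus 0.1 (0.0472), and the others did not call it. RefSeq lists 11 copies of Ndufb4, and the 1 of them in the table held 5.73% as many counts, so reads may be split between them.

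Genes of the NADH-binding module were called in both directions. Ndufv2, one of its iron-sulfur subunits, measured 59.6 and 59.4 CPM in the PVDF@PDA libraries, 66.4 and 57.8 with PCL@PDA and 72.7 and 73.9 in Control. Every material library lay below both Control libraries, with differences of -0.30 (SE 0.075, adjusted p = 0.0029) and -0.24 (SE 0.074, adjusted p = 0.016). Ndufv3, a small supernumerary subunit of the same module, measured 46.0 and 37.6 CPM in the PVDF@PDA libraries, 42.9 and 43.7 with PCL@PDA and 37.6 and 31.5 in Control. PVDF@PDA replicate 3 (37.642 CPM) was barely above Control replicate 1 (37.555 CPM). The differences were 0.28 (SE 0.095, adjusted p = 0.039) and 0.33 (SE 0.095, adjusted p = 0.010). With PCL@PDA, Ndufb11 of the membrane arm was also higher (0.23, adjusted p = 0.016) and Ndufs1, the largest iron-sulfur subunit of the NADH-binding module, lower (-0.16, adjusted p = 0.032), both picked here after their values were seen. Single libraries decided part of these calls. The Ndufv3 differences fell to 0.15 (adjusted p = 0.498) without Control replicate 3 and 0.12 (0.597) without PVDF@PDA replicate 1 for PVDF@PDA, and to 0.20 (0.270) without Control replicate 3 for PCL@PDA. For PCL@PDA, the Ndufv2 call ended without Control replicate 1 (adjusted p = 0.0782), Control replicate 3 (0.0987) or PCL@PDA replicate 3 (-0.15, adjusted p = 0.221), that of Ndufb11 without Control replicate 1 (0.163) or 3 (0.0669), and that of Ndufs1 without Control replicate 1 (0.333), PCL@PDA replicate 3 (0.177), PVDF@PDA replicate 1 (0.0521) or 3 (0.0535).

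Complex II, succinate dehydrogenase, feeds electrons from the citric acid cycle into the chain. Its iron-sulfur subunit Sdhb measured 57.9 and 57.5 CPM in the PVDF@PDA libraries, 62.2 and 60.2 with PCL@PDA and 67.6 and 71.5 in Control. The groups were ordered without overlap, lowest with PVDF@PDA and highest in Control, but the materials did not differ beyond the test (-0.085, adjusted p = 0.774). The PVDF@PDA difference was -0.27 (SE 0.074, adjusted p = 0.0072), the one call in this complex, and the PCL@PDA difference was -0.19 (adjusted p = 0.067). With the batch as a block, the PCL@PDA difference was called too (adjusted p = 0.047). It was also called with the length trend removed (0.0455, and 0.0287 with the block). The PVDF@PDA call ended without Control replicate 3 (-0.23, adjusted p = 0.123), PVDF@PDA replicate 1 (0.0581) or PVDF@PDA replicate 3 (0.0772). The flavoprotein Sdha differed from Control by -0.045 with PVDF@PDA and 0.019 with PCL@PDA, and the membrane anchors Sdhc and Sdhd by -0.014 and -0.12, and by 0.15 and 0.045. None of these 6 values passed the test (adjusted p from 0.084 to 0.92), and their 95% intervals lay within 0.5 of 0. With library totals alone, edgeR called Sdhc higher with PCL@PDA (0.19, adjusted p = 0.0193). No other alternative that keeps 2 libraries per group did.

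**Figure D3:**
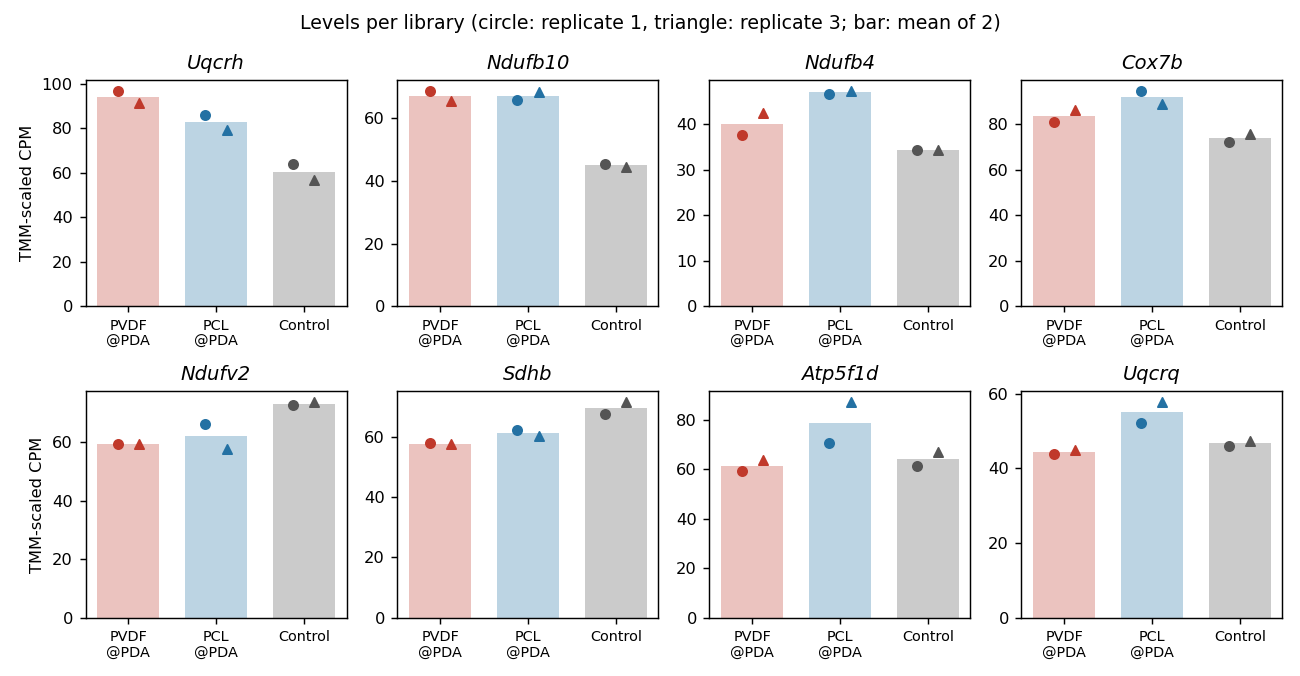
TMM-scaled CPM of 8 members in each library (circle, replicate 1; triangle, replicate 3), with bars at the mean of 2 libraries from 0. Uqcrh and Ndufb10 are higher with both materials than in Control, Ndufv2 and Sdhb are lower, and Atp5f1d and Uqcrq are highest with PCL@PDA.

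Complex III passes electrons from ubiquinol to cytochrome c. Uqcrh, the acidic hinge protein beside cytochrome c1, measured 96.9 and 91.3 CPM in the PVDF@PDA libraries, 86.0 and 79.4 with PCL@PDA and 64.0 and 56.9 in Control. The 3 groups did not overlap and PVDF@PDA was highest. Its differences from Control, 0.64 (1.56-fold, SE 0.071, adjusted p = 8.26e-10) and 0.45 (SE 0.071, adjusted p = 2.60e-06), were the largest of any member with PVDF@PDA and, with PCL@PDA, the largest after those of Ndufb10 and Ndufb4. Within batch 1 they were 0.60 and 0.43, and within batch 3 they were 0.68 and 0.48.

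The other called genes of complex III were each called in 1 comparison with Control, and none was called between the materials. Between PVDF@PDA and PCL@PDA, Uqcrb differed by 0.13 (adjusted p = 0.594) and Cyc1 by -0.21 (adjusted p = 0.398), and Uqcrq is given below. Uqcrb was higher with PVDF@PDA (115 and 110 CPM against 99.588 and 97.997 in Control; log2 difference 0.19, SE 0.065, adjusted p = 0.037), and PCL@PDA (110 and 95.9 CPM) overlapped Control. That call ended without any 1 of the 4 libraries (adjusted p = 0.133 without Control replicate 1, 0.208 without Control replicate 3, 0.268 without PVDF@PDA replicate 1 and 0.0943 without PVDF@PDA replicate 3). Uqcrq, a small accessory subunit, measured 52.2 and 57.8 CPM with PCL@PDA, 43.9 and 44.9 with PVDF@PDA and 46.1 and 47.4 in Control. It was higher with PCL@PDA than in Control (0.23, SE 0.081, adjusted p = 0.032), and so was Cyc1, the haem-bearing cytochrome c1 (83.1 and 89.5 CPM against 77.7 and 73.9; 0.19, SE 0.069, adjusted p = 0.044). The Uqcrq call ended without Control replicate 1 (0.210), Control replicate 3 (0.106) or PCL@PDA replicate 3 (0.16, adjusted p = 0.283). The Cyc1 call ended without any single library other than PCL@PDA replicate 1 (adjusted p from 0.0623 to 0.310, the latter without Control replicate 3). The core and catalytic subunits Uqcrc1, Uqcrc2 and Uqcrfs1 were not called, with differences of -0.098 to -0.006.

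Complex IV, cytochrome c oxidase, reduces oxygen and has isoforms that differ between tissues. Of its 11 tested members, 0 were called with PVDF@PDA, against 15.7% of all genes. With PCL@PDA 3 were higher and 0 lower, against 8.77% and 11.3% of all genes. Cox7b measured 81.1 and 86.5 CPM in the PVDF@PDA libraries, 94.8 and 88.8 with PCL@PDA and 72.3 and 75.6 in Control. The groups did not overlap, but Cox7b was not called between the materials. The PCL@PDA difference was 0.31 (SE 0.068, adjusted p = 4.72e-04) and the PVDF@PDA difference was 0.18 (adjusted p = 0.061, and 0.034 with the batch as a block). The PVDF@PDA difference was also called with library totals alone (0.0209), on the 4 libraries compared (0.0204) and by limma on FPKM plus 0.1 (0.0479). The other alternatives that keep 2 libraries per group did not call it. Cox6a1 measured 152 and 178 CPM with PCL@PDA, 145 and 146 with PVDF@PDA and 128 and 142 in Control. The materials lay above Control, with a PCL@PDA difference of 0.29 (SE 0.065, adjusted p = 8.93e-04) and a PVDF@PDA difference of 0.11 (adjusted p = 0.29). Cox5b, which binds zinc at the matrix side, was higher with PCL@PDA (0.20, SE 0.075, adjusted p = 0.047). The Cox6a1 call ended without Control replicate 1 (0.22, adjusted p = 0.0667) or PCL@PDA replicate 3 (0.17, adjusted p = 0.0525), and the Cox5b call ended without any single library other than PCL@PDA replicate 1 (adjusted p from 0.0501 to 0.252).

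Among the isoforms of complex IV, the general forms were the abundant ones. Cox4i1 had a mean of 251.6 FPKM and Cox4i2, the isoform linked to low oxygen in lung and other tissues, had 4 and 2 counts with PVDF@PDA, 2 and 0 with PCL@PDA and 1 and 3 in Control. A total of 3 counts is worth 0.0861 to 0.0911 CPM, so Cox4i2 was at the limit of what this depth shows. Cox4i1 differed from Control by 0.003 and 0.087 and was not called. Cox6a2, the muscle form, measured 4.92 and 4.73 CPM in the PVDF@PDA libraries, 5.01 and 5.75 with PCL@PDA and 4.50 and 3.90 in Control, and was not called (adjusted p = 0.61 and 0.28). Cox7a2 (0.097 and 0.17), Cox6b1 (0.095 and 0.15) and Cox8a (-0.13 and 0.088) were not called against Control. With PCL@PDA, limma on log2 FPKM called Cox6b1 higher (adjusted p = 0.0431 and 0.0476 with pseudocounts of 0.1 and 1). With a pseudocount of 0.1 it also called Cox7a2 (0.0487) and Cox6a2 (0.0497) higher. No other alternative called these genes against Control. The row that RefSeq names Cox7a1, the muscle form, carries a locus name in the table and had 26 to 70 counts, with 70 and 58 with PVDF@PDA, 50 and 54 with PCL@PDA and 43 and 26 in Control (log2 difference 0.91 and 0.57, adjusted p = 0.154 and 0.404).

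Complex V makes ATP. The 3 genes Atp5mc1, Atp5mc2 and Atp5mc3 encode the same mature membrane-ring subunit with different import sequences, and only Atp5mc1 of the 3 was called against Control. It measured 54.3 and 54.5 CPM in the PVDF@PDA libraries, 56.5 and 58.5 with PCL@PDA and 45.0 and 47.1 in Control. All material libraries were above Control, by 0.24 (SE 0.079, adjusted p = 0.027) and 0.32 (SE 0.079, adjusted p = 0.0020). Atp5mc2 differed by -0.053 and 0.10 and Atp5mc3 by 0.032 and 0.005; the differences between the 3 genes were not tested. Atp5f1d, the delta subunit of the central stalk, measured 70.5 and 87.1 CPM with PCL@PDA, 59.1 and 63.5 with PVDF@PDA and 61.3 and 67.0 in Control, and was higher with PCL@PDA (0.30, SE 0.080, adjusted p = 0.0063). The gene overlaps Cbarp in the annotation, which had 2011 counts over the libraries against 13917, and the counting strand is not given. Atp5mg of the membrane part was not called with PCL@PDA (0.16, adjusted p = 0.064) except with the batch as a block (0.0229). The Atp5mc1 call with PVDF@PDA ended without any 1 of its 4 libraries (adjusted p = 0.229 and 0.0892 without Control replicates 1 and 3, 0.140 and 0.168 without PVDF@PDA replicates 1 and 3), and that with PCL@PDA without Control replicate 1 (0.058). The Atp5f1d call ended without Control replicate 1 (0.110) or PCL@PDA replicate 3 (0.13, adjusted p = 0.3).

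**Figure D4:**
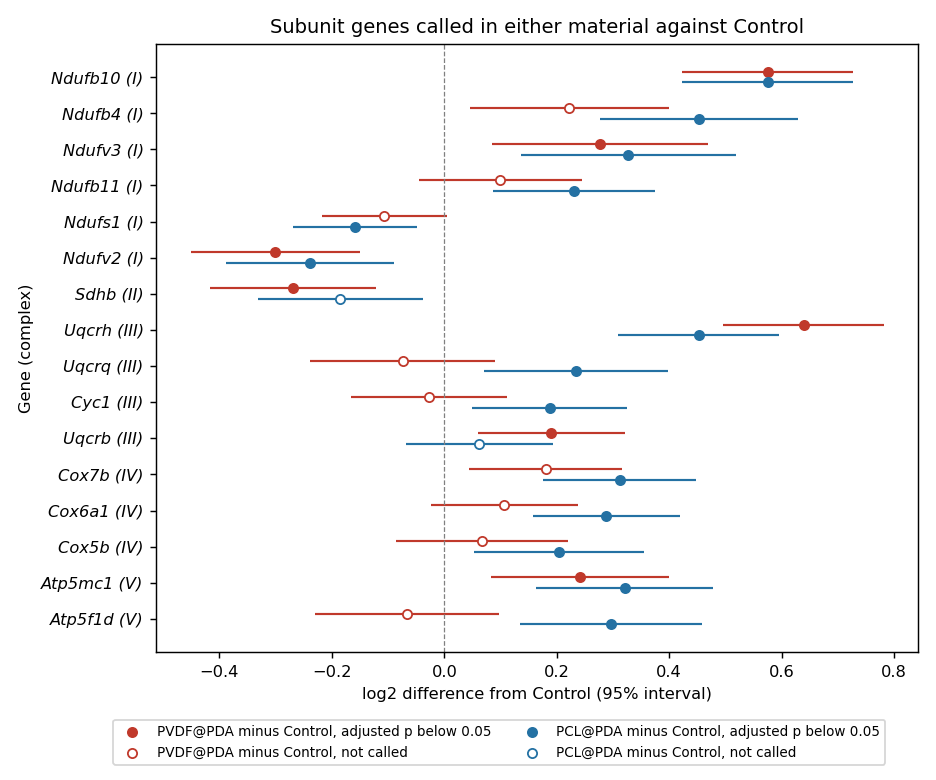
log2 difference from Control, with 95% intervals, of the 16 members called with either material; red is PVDF@PDA, blue is PCL@PDA, and filled points are called. Only 5 of the 16 are filled in both colours, 2 in red alone and 9 in blue alone; both colours share the Control libraries.

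The design names the effect of piezoelectricity under hypoxia as its question. PVDF@PDA and PCL@PDA are different materials, so piezoelectricity and their other properties cannot be told apart here. In PVDF@PDA against PCL@PDA, 0 of 76 members were called by edgeR (0.0615% of all genes; 0.0538% higher and 0.00768% lower), and 0 by DESeq2 or limma. At an unadjusted p below 0.05, 3 members were higher and 12 lower with PVDF@PDA, against 3.53% and 4.96% of all genes, or 8.49% in either direction. The member values leaned one way: 54 of 76 were below 0, and 28.9% were above 0 against 51.4% of all genes. The median was -0.061, with 0.004 over all genes. It was -0.061 within batch 1 and -0.065 within batch 3. Against Control, 52 of 76 members were above 0 with PCL@PDA (51.5% of all genes) and 41 with PVDF@PDA (51.2%). The 2 PVDF@PDA libraries lay below both PCL@PDA libraries for 31 members and above them for 9, against 18.9% and 19.2% of all genes. Intervals (95%) stayed within 0.25 of 0 for 38 of 76 members and within 0.5 for 72.

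Atp5f1d had the smallest p (-0.36, SE 0.080, adjusted p = 0.073), followed by Uqcrq (-0.31, SE 0.082, adjusted p = 0.235). For both, the PVDF@PDA libraries were close to Control and the PCL@PDA libraries above it, as given for each gene above. With the batch as a block both were called lower with PVDF@PDA (adjusted p = 6.25e-04 for Atp5f1d and 0.0386 for Uqcrq), in a fit with 2 residual degrees of freedom and an infinite median prior degrees of freedom, so that genes share the variance estimate almost fully (50.3 in the fit without the block). Atp5f1d was also called with no filter on low counts (0.00121, again with an infinite prior), on the 4 libraries alone (0.0343) and without Control replicate 1 (0.00985) or 3 (0.00842). The members with the smallest p in the other complexes were Ndufb4 (-0.23, adjusted p = 0.435), Sdhc (-0.16, adjusted p = 0.44) and Cox6a1 (-0.18, adjusted p = 0.42). Uqcrh went the other way, at 0.19 (adjusted p = 0.433). Without PCL@PDA replicate 1, PCL@PDA replicate 3 is alone in its group and is assumed to vary like the other groups. Members that passed the test in that fit were Atp5f1d (-0.51), Cox6a1 (-0.29), Cyc1 (-0.27), Ndufs7 (-0.60), Sdhc (-0.20) and Uqcrq (-0.38). Cox7c (0.28), Uqcrb (0.23) and Uqcrh (0.25) passed in the other direction. The share of all genes passing there is not given here, so this is not a result about the members. Without PCL@PDA replicate 3 no member passed.

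The genes that build, feed and regulate the chain were described from 12 lists. In none of them was a gene called between the materials (0.0615% of all genes). Against Control, 15.7% of all genes were called with PVDF@PDA and 20.1% with PCL@PDA, and the counts below stand beside these shares. Of 22 tested factors of complex IV, Cox15, which makes haem A, was lower with both materials (-0.33 and -0.35, adjusted p = 5.47e-04 and 1.88e-04), Pet100 was higher with PVDF@PDA (0.39, adjusted p = 0.031) and Cox14 higher with PCL@PDA (0.61, adjusted p = 8.16e-04). Of 9 factors of complex III, Smim4, which RefSeq names Uqcc5, was higher with both (1.00 and 0.89, adjusted p = 0.0037 and 0.0089). Of 15 factors of complex I, Ndufaf4 was lower with PCL@PDA (-0.25, adjusted p = 0.0036) and 0 were called with PVDF@PDA. The 4 factors of complex II had 0 calls, and of 4 genes for complex V the inhibitor Atp5if1 was higher with PCL@PDA (0.17, adjusted p = 0.040). The Pet100 call ended without any 1 of its 4 libraries (adjusted p from 0.0502 to 0.296), the Atp5if1 call without any single library other than PCL@PDA replicate 1 (0.0629 to 0.231), the Cox14 call without Control replicate 1 (0.0543) and the Ndufaf4 call without Control replicate 1 (0.0511) or PCL@PDA replicate 3 (0.0539). By limma on FPKM the Cox15 call ended with PVDF@PDA (0.0651 and 0.0709 with pseudocounts of 0.1 and 1) and, with 1, with PCL@PDA (0.0516), and so did those of Ndufaf4 (0.061 and 0.066) and Pet100 (0.0592 and 0.0697). DESeq2 did not call Pet100 (0.0694) or Atp5if1 (0.0513), and the Atp5if1 call also ended on the 4 libraries compared (0.0601) and with the length trend removed (0.128, and 0.0893 with the block). The Smim4 calls ended without PVDF@PDA replicate 3 (0.0641) for PVDF@PDA and without Control replicate 1 (0.0852) or PCL@PDA replicate 3 (0.0884) for PCL@PDA.

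Of 4 subunits and isoforms that the naming patterns leave out, Ndufa4l2 alone was called, with PVDF@PDA. Of 8 genes linked to hypoxic control of the chain, 3 were higher and 1 lower with PVDF@PDA, and 3 were higher with PCL@PDA, against 6.79% and 8.90% of all genes higher and lower with PVDF@PDA and 8.77% higher with PCL@PDA. Ndufa4l2 is in both of these lists. Higd1a, a hypoxia-inducible protein that associates with the chain, measured 87.6 and 91.5 CPM in the PVDF@PDA libraries, 86.7 and 82.5 with PCL@PDA and 50.5 and 56.8 in Control. All material libraries were above Control, by 0.74 (SE 0.071, adjusted p = 1.38e-11) and 0.66 (SE 0.071, adjusted p = 3.24e-10). Mgarp, a mitochondrial protein induced in hypoxia, was higher by 0.92 and 0.76 (adjusted p = 0.016 and 0.047). Ndufa4l2, a hypoxia-induced relative of Ndufa4, measured 2.76 and 3.33 CPM in the PVDF@PDA libraries, 2.58 and 2.63 with PCL@PDA and 1.4998 and 1.4922 in Control. It was called with PVDF@PDA (1.02, SE 0.32, adjusted p = 0.021) but not with PCL@PDA (0.80, adjusted p = 0.075), and the materials did not differ beyond the test (0.23, adjusted p = 0.874). Higd2a was higher with PCL@PDA (0.47, adjusted p = 0.037). The 1 gene lower with PVDF@PDA was Lonp1, a mitochondrial protease (-0.18, adjusted p = 0.016), and its call ended without Control replicate 1 (0.0801), Control replicate 3 (0.126) or PVDF@PDA replicate 3 (0.313). Leaving out PVDF@PDA replicate 3 ended the Ndufa4l2 call (0.88, adjusted p = 0.198), as did leaving out Control replicate 1 (0.0978) or 3 (0.101). The Mgarp call with PVDF@PDA ended without Control replicate 3 (0.211) or PVDF@PDA replicate 1 (0.105) or 3 (0.0547), and that with PCL@PDA without Control replicate 3 (0.337), PCL@PDA replicate 3 (0.339), PVDF@PDA replicate 1 (0.0517) or PVDF@PDA replicate 3 (0.0505). The Mgarp call with PCL@PDA also ended by DESeq2 (0.102), limma on FPKM plus 1 (0.0532), edgeR without robust estimation (0.0531), on the 4 libraries compared (0.066) and with the length trend removed (0.054). The Higd2a call ended without Control replicate 1 (0.321) or PCL@PDA replicate 3 (0.3), by DESeq2 (0.104), with the length trend removed (0.0614) and by limma on FPKM (0.0978 and 0.112), and the Lonp1 call by limma on FPKM (0.158 and 0.167).

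Of 12 regulators of mitochondrial biogenesis, the coactivator Ppargc1a was higher with both materials. It measured 3.98 and 3.91 CPM in the PVDF@PDA libraries, 2.86 and 3.36 with PCL@PDA and 1.02 and 1.03 in Control. The groups did not overlap, with differences of 1.94 (SE 0.32, adjusted p = 7.09e-06) and 1.60 (SE 0.32, adjusted p = 1.63e-04). By limma on log2(FPKM + 1), a scale that understates the change of low genes, they were 0.34 (adjusted p = 0.0292) and 0.26 (adjusted p = 0.0514, not called), and on log2(FPKM + 0.1) 1.31 and 1.04. Gabpa, whose product binds ETS-type motifs, was lower with PCL@PDA (-0.18, adjusted p = 0.023), and that call ended without Control replicate 1 (0.329) or PCL@PDA replicate 3 (0.165), with library totals alone (0.077) and by limma on FPKM (0.201 and 0.208). Gabpa overlaps the member Atp5pf in the annotation, with 38872 counts over the libraries against 9959, and the counting strand is not given. Nrf1 was not called (-0.18 and -0.21, adjusted p = 0.131 and 0.066). Of the 14 genes for cytochrome c and coenzyme Q, 0 were called against Control, where 15.7% (PVDF@PDA) and 20.1% (PCL@PDA) of all genes were.

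The citric acid cycle, which supplies NADH and succinate, had 4 of 13 genes lower with PVDF@PDA and 3 lower with PCL@PDA, against 8.90% and 11.3% of all genes, and 0 higher, against 6.79% and 8.77%. The succinyl-CoA ligase subunits Sucla2 (-0.21 and -0.23, adjusted p = 0.0096 and 0.0042) and Suclg2 (-0.20 and -0.23, adjusted p = 0.021 and 0.0046) were lower with both. Citrate synthase, Cs, was lower with PVDF@PDA (-0.19, adjusted p = 0.021) and Dld lower with PCL@PDA (-0.22, adjusted p = 0.0036). The list's median was -0.12 with PVDF@PDA and -0.049 with PCL@PDA, beside the medians of all genes given above. Mitochondrial ribosomal proteins had 1 higher and 3 lower of 74 with PVDF@PDA, and 2 higher and 5 lower with PCL@PDA. Cytosolic ribosomal proteins had 2 higher and 9 lower of 89 with PVDF@PDA, and 6 higher and 6 lower with PCL@PDA. Over all genes, 6.79% were higher and 8.90% lower with PVDF@PDA, and 8.77% higher and 11.3% lower with PCL@PDA. The Cs call ended without any 1 of its 4 libraries (adjusted p from 0.105 to 0.184) and with library totals alone (0.0607), as did the Suclg2 call with PVDF@PDA (0.0631). By limma on FPKM, Cs (0.103 and 0.107), Sucla2 with PVDF@PDA (0.0611 and 0.0634), Suclg2 with both materials (0.0969 to 0.167) and Dld (0.113 and 0.125) were not called. The Sucla2 calls ended without Control replicate 1 (0.067), Control replicate 3 (0.0906) or PVDF@PDA replicate 3 (0.152) for PVDF@PDA and without Control replicate 3 (0.0506) for PCL@PDA, the Suclg2 calls without Control replicate 3 (0.246 and 0.108) or PVDF@PDA replicate 1 (0.370), and the Dld call without PCL@PDA replicate 3 (0.118).

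Subunit genes are short, with a median gene length of 701.5 bases against 3129 over all genes tested. Across the 76 members, Spearman's rho of the log2 difference with gene length was -0.46 with PVDF@PDA and -0.26 with PCL@PDA against Control, and -0.036 between the materials. Over all genes tested rho was 0.023, -0.042 and 0.12. These are correlations across genes of the same libraries, and genes are not independent replicates. With the trend of each library on length removed, Uqcrh and Ndufb10 stayed called with both materials. RefSeq lists named copies for 43 members, most of them pseudogenes by name, and 15 such copies were counted in the table, so reads of close copies may be split. The largest share was for Atp5mk, whose copies held 17.6% as many counts. Uqcrh has no named copy there and the copy of Ndufb10 was not counted. In the annotation, 14 members overlap another counted gene, and without the counting strand reads of such pairs cannot be told apart.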

How the data were processed

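RNA of RSC96 cells was sequenced in 6 libraries, 2 in each of 3 groups. The authors deposited a table of whole-number read counts per gene and FPKM values of the same genes; count and FPKM ratios gave 1 gene length per gene in all 15690 genes compared (relative tolerance 1e-05). Per the submitters' processing notes, DESeq2 1.4.5 and the build mRatBN7.2 were used; which aligner, counter, annotation and strand setting made the table is not given in the sources used here. Genes were grouped by library titles.

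Counts were filtered with filterByExpr (13018 of 16849 genes kept), TMM-scaled and tested with edgeR 4.0.16 (R 4.3.3) by the quasi-likelihood F test on all 6 libraries, with 3 residual degrees of freedom, robust estimation and Benjamini-Hochberg adjustment over all genes tested; CPM and log2 differences come from that fit, and a log2 difference names the first group minus the second. Total counts of 32760123 to 35389307 make 3 counts worth 0.0861 to 0.0911 CPM, and this covers counting error only. Alternatives were DESeq2 1.42.0, limma 3.58.1 on log2 of the deposited FPKM plus 1 or 0.1, other scaling, no filter, the 4 libraries compared, removal of each library's length trend (loess), the batch as a block, and leaving out each library. The tests were checked on simulated data.

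Batch numbers in the labels pair the libraries. Deviations from group means of same-batch libraries correlated across all genes with r = -0.021 (PVDF@PDA and PCL@PDA), 0.043 (PVDF@PDA and Control) and 0.13 (PCL@PDA and Control), and across the members with 0.24, 0.14 and 0.33.

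Named members are, per comparison and complex, up to 4 called with the smallest p, or else the 1 with the smallest p, plus the isoforms of complex IV and V and all of complex II; of each gene list, up to 3 called genes with the smallest p. Members and lists were chosen with earlier results of these data known. All 77 members matched RefSeq by gene ID, and promoters come from RefSeq's GRCr8 table. Mitochondrially encoded subunits were not analysed here, and some Schwann cell markers are not reported here.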

Additional observations from a re-analysis of the deposited data

How the results depend on the processing

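Over the alternatives, single-gene results kept direction and side of the threshold in 1473 cases, no longer passed in 164, newly passed in 35 and changed sign in 28. Uqcrh and Ndufb10 with both materials, and Ndufb4 and Cox7b with PCL@PDA, were called under every alternative run. Members lower with PVDF@PDA than with PCL@PDA numbered 0, but 1 with no filter, 2 with the batch as a replicate block, 2 with the block and the length trend removed and 1 on the 4 libraries compared; leaving out a library gave 0 to 6 lower and 0 to 3 higher. Members higher with PVDF@PDA than in Control numbered 5, but 3 by DESeq2 and 3 by limma on FPKM plus 1, and 2 to 7 with a library left out; lower members numbered 2, but 1 by limma on FPKM plus 1, and 1 to 3. With PCL@PDA, 12 were higher than in Control (5 to 16 with a library left out) and 2 lower, but 0 with library totals alone, 4 with the length trend removed, 4 with that and the block, 1 on the 4 libraries compared, 0 by limma with either pseudocount, and 0 to 4 with a library left out. Beyond the blocked values given beside Sdhb, Cox7b, Atp5mg, Atp5f1d and Uqcrq, the replicate block changed no other call among the members. The share of all genes called under each alternative is not given here, so changes in the member counts are not results about the members. The causes were not tested. Every change of sign was of an uncalled difference near 0. With PVDF@PDA against Control, Sdhc was 0.0223 with library totals alone and 0.0221 and 0.0223 by limma (FPKM plus 1 and 0.1), Cyc1 0.00959, 0.00908 and 0.00926 in the same settings, and Cox4i1 -0.0013 with no filter, -0.00298 with block and length trend and -0.00367 with the length trend removed; with PCL@PDA, Atp5mc3 was -0.0156 with block and length trend and -0.0163 with the length trend removed. With a library left out, differences from Control with PCL@PDA ran from -0.0383 to 0.0453 for Atp5mc3, -0.0761 to 0.103 for Sdha, -0.00731 to 0.0912 for Sdhd and -0.0432 to 0.155 for Uqcrb; with PVDF@PDA, from -0.0115 to 0.0702 for Atp5mc3, -0.0507 to 0.052 for Cox4i1, -0.0604 to 0.179 for Cox5b, -0.0679 to 0.00893 for Cyc1 and -0.0424 to 0.00862 for Sdhc; and between the materials, from -0.00256 to 0.0518 for Atp5mc3, -0.122 to 0.00463 for Cox6b1 and -0.149 to 0.0265 for Sdha. Leaving out a library leaves its group with 1, which is assumed to vary like the others. Depth limits Cox4i2, at 0 to 4 counts.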
